A study of Mus musculus with 8 samples.

Results

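Mouse genes for cytoplasmic fatty acid binding proteins and for the peroxisome proliferator-activated receptors (PPARs) were compared between irradiated and nonirradiated skin. Cd36, Rxra and Ppargc1a, which encode neither, were taken with them. The group was taken by gene symbol from the deposited expression table and holds 10 of its 22564 genes, namely Fabp3, Fabp4, Fabp5, Fabp7, Cd36, Ppara, Ppard, Pparg, Rxra and Ppargc1a. The choice is by symbol, not by a threshold on a measured value, though it was made with earlier results of these data known. Each symbol was found in 1 place in the table. Of the 10 genes, 9 passed the filter on low values, which asked for 0.5 FPKM or more on average across libraries and which 13324 genes passed in all. Fabp7 lay below that filter and is described by its values. FPKM counts fragments per kilobase of transcript, scaled to library size.

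The irradiated group comprised 4 libraries of skin from areas of male C57Bl/6 mice, 4 weeks old, that had been given 1 dose of 35 Gy of electrons 24 h earlier, at 750 cGy per min from a 6 MeV beam. The nonirradiated group comprised 4 libraries of skin areas left out of the beam, labelled as controls. RNA of whole skin was depleted of ribosomal RNA and sequenced, so each value sums over all cell types of the tissue. The labels do not say which libraries came from the same mouse or whether each came from a separate mouse, so each p-value here is set against the variation among libraries, which can be technical in part.

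Fatty acid binding proteins are small cytoplasmic carriers that hold long-chain fatty acids and bring them to sites of oxidation, storage or signalling. Some of them pass their ligand to PPARs in the nucleus. PPARs bind DNA together with a retinoid X receptor and switch on genes of fatty acid uptake, oxidation and storage, among them Cd36 and several binding proteins. In skin these genes are known from fat cells of the deeper layers, sebaceous glands, capillary endothelium, macrophages, keratinocytes and, for the heart-type protein, from striated muscle under the dermis.

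The libraries held between 5036276 and 6626648 recovered reads each, but they differed in how many genes were seen. Between 9311 and 12921 genes had a value above 0 in irradiated libraries, against 12566 to 14610 in nonirradiated libraries. Within a search from 3.5 to 300 reads, genes were most crowded at 19.98 to 78.5 reads in irradiated libraries. In nonirradiated libraries they were most crowded at 4.49 to 15.6 reads. Reads divided by that number are called units here. Whether a unit is a distinct fragment is an assumption. The values of 4.49 and 4.78 reads in nonirradiated replicates 2 and 3 lie near the lower search limit. No pile-up is shown in those libraries, and their 1121078 and 1309308 units may be set by that limit. Nonirradiated replicates 1 and 4 had 384377 and 386080 units, also above every irradiated library. Units total 75931 to 331738 per irradiated library against 384377 to 1309308 per nonirradiated library. A low gene in an irradiated library therefore rests on few units. The part of this difference in the results below was not tested. Nonirradiated replicate 1 stood apart from its group in skeletal muscle transcripts, with 6799 FPKM summed over 16 markers against 2103 to 2444 FPKM in the other 3. The fitted differences of Fabp3, Cd36, Pparg, Rxra, Acadl and Pdk4 are therefore also given without it. Fits with a covariate are given with it only.

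None of the 9 tested genes changed by the test used here, limma on log2(FPKM + 1) with p-values adjusted over all 13324 genes at a threshold of 0.05. Over all genes tested, 33 passed (0.248%), with 16 higher in irradiated skin (0.12%) and 17 lower (0.128%). Before adjustment, 0 of the 9 had a limma p under 0.05, against 1718 of all genes (12.9%). In none of the 10 genes were the irradiated and nonirradiated FPKM values free of overlap, against 1129 of all genes tested (8.47%). The fitted differences, irradiated minus nonirradiated, lay above 0 in 6 genes and below 0 in 3, from -0.74 to 1.21, with a median of 0.24. The median over all genes tested was -0.11, and 43.9% of them lay above 0. On the estimated counts, 0 of the 9 were called by edgeR, against 0.748% of all genes (0.407% higher and 0.341% lower), and 0 of the 9 by DESeq2, against 6.09% of all genes (3.19% higher and 2.9% lower). On units, edgeR tested 6 of the 10 genes and called 0, against 8.71% of all genes (5% higher and 3.71% lower). The number called was 0 in each of the 22 other settings tried.

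**Figure D1:**
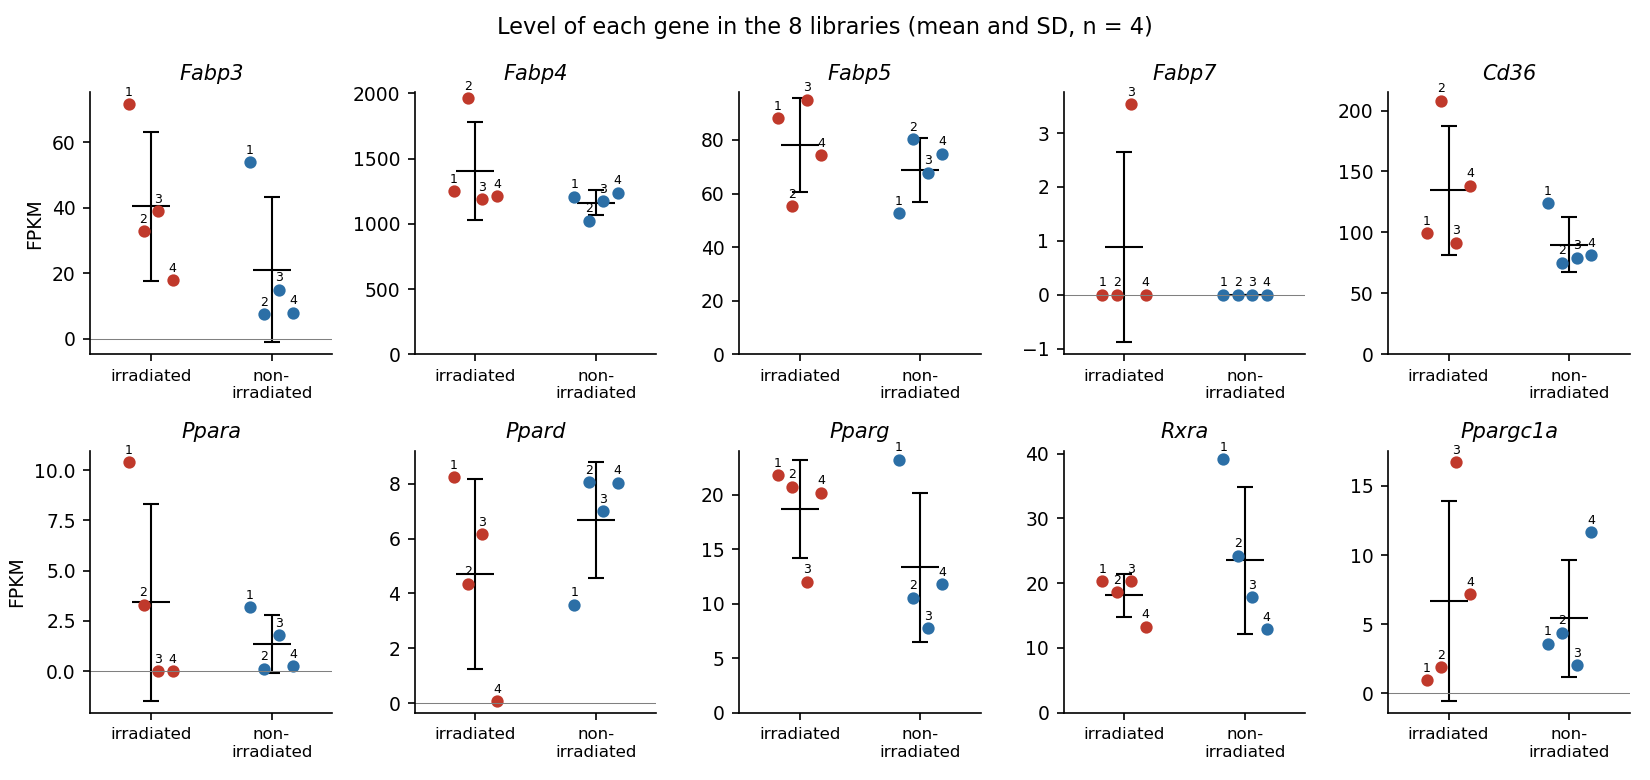
FPKM of each of the 10 genes in the 4 irradiated libraries (red, left) and the 4 nonirradiated libraries (blue, right), with the replicate number at each point and bars for the mean and SD (n = 4 each). The groups overlap in every panel, and nonirradiated replicate 1 is the highest of its group for Fabp3, Cd36, Ppara, Pparg and Rxra.

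**Figure D2:**
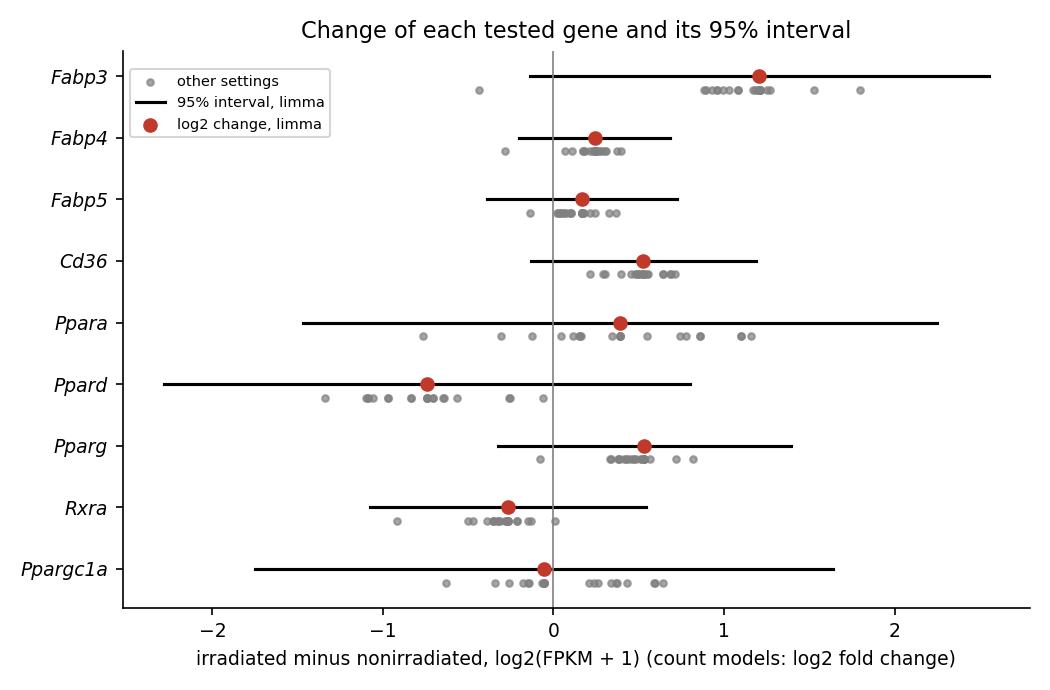
Fitted difference of each of the 9 tested genes, irradiated minus nonirradiated, on the log2(FPKM + 1) scale, as a red point with its 95% interval from limma (black line) and the values under the other settings as grey points, of which the count models give log2 fold changes. Every interval crosses 0, and Cd36 and Ppard are the 2 genes with all grey points on 1 side of 0.

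Fabp4, the carrier of fat cells and capillary endothelium, was the most abundant of these genes and ranked 20 by mean FPKM among all genes of the table (ENSMUSG00000062515, chr3:10204088-10208576, minus strand, GRCm38). It had 1249, 1965, 1188 and 1215 FPKM in irradiated replicates 1 to 4, against 1209.6, 1025, 1177 and 1241 FPKM in nonirradiated replicates 1 to 4. Irradiated replicate 2 stood above all other libraries, irradiated replicates 3 and 4 lay within the nonirradiated range, and irradiated replicate 1 lay just above it. Fabp4 averaged 1404 ± 374 FPKM in irradiated skin and 1163 ± 95.5 FPKM in nonirradiated skin (SD, n = 4 each). The fitted difference was 0.24 (SE 0.20, 95% interval -0.20 to 0.69, adjusted p = 0.661, limma), and without irradiated replicate 2 it was 0.07 (adjusted p = 0.884, limma). With 638 units in irradiated and 2688 in nonirradiated libraries it was also the best covered of the 10 genes. The upper end of the interval corresponds to a fold of 1.61 and the lower end to 0.869 on that scale.

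Fabp5, the epidermal carrier, which binds fatty acids in keratinocytes and is known to deliver ligand to the receptor encoded by Ppard, lies near Fabp4 (ENSMUSG00000027533, chr3:10012548-10016607, plus strand). It had 88.0, 55.2, 95.05 and 74.4 FPKM in irradiated skin, against 52.6, 80.3, 67.8 and 74.9 FPKM in nonirradiated skin. The groups overlapped over most of their range, with means of 78.2 ± 17.6 FPKM in irradiated and 68.9 ± 12.0 FPKM in nonirradiated skin (SD, n = 4 each). The fitted difference was 0.17 (SE 0.25, 95% interval -0.39 to 0.72, adjusted p = 0.820, limma). The annotation lists a processed pseudogene of Fabp5, so its value is uncertain where reads were shared. The summed FPKM of 9 epidermal keratinocyte markers ranged from 2773 to 4993 in irradiated libraries and from 1952 to 2691 in nonirradiated libraries, a pair of ranges that do not overlap. The list is led by Krt5, Krt15 and Krt14. Of these 9 markers, 7 lay above 0, and limma called 0, with 5 at an unadjusted p under 0.05 against 12.9% of all genes. By the count fits, edgeR called 1 and DESeq2 6, all higher, where DESeq2 called 3.19% and edgeR 0.407% of all genes higher. Krt5 averaged 1234 ± 360 FPKM in irradiated and 849 ± 140 FPKM in nonirradiated skin (SD, n = 4 each). As in any bulk sample, a different number of cells of a type and a different amount of RNA per cell cannot be told apart here.

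Fabp3, the carrier of heart and skeletal muscle, had the largest fitted difference of the group (ENSMUSG00000028773, chr4:130308595-130315463, plus strand). It had 71.6, 32.9, 38.9 and 17.96 FPKM in irradiated skin, against 53.8, 7.40, 14.9 and 7.97 FPKM in nonirradiated skin. Nonirradiated replicate 1 exceeded 3 of the 4 irradiated libraries, while the other 3 nonirradiated libraries lay below all irradiated ones. The means were 40.3 ± 22.6 FPKM in irradiated and 21.0 ± 22.1 FPKM in nonirradiated skin (SD, n = 4 each). The fitted difference was 1.21 (SE 0.61, 95% interval -0.14 to 2.55, adjusted p = 0.441, limma), a fold of 2.31 with bounds of 0.908 and 5.86. Without nonirradiated replicate 1 the difference was 1.80 (adjusted p = 0.175, limma). The values rest on 24 units in irradiated and 51 in nonirradiated libraries.

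The nonirradiated library with the highest Fabp3 level also held the most skeletal muscle transcripts of its group. The summed FPKM of 16 skeletal muscle markers was between 5494 and 8539 in irradiated libraries and between 2103 and 6799 in nonirradiated libraries. Nonirradiated replicate 1 carried the value of 6799, and the other 3 nonirradiated libraries had 2103, 2444 and 2426. The list is led by Tnnt3, Ttn and Myh1. Of the 16 markers, 15 lay above 0 and none was at 0 FPKM in all 8 libraries. At an unadjusted p under 0.05 limma had 10 of the 16, against 12.9% of all genes. In 6 the groups did not overlap, against 8.47% of all genes. After adjustment limma called 1 higher, Myh1, against 0.12% of all genes. Myh1 averaged 854 ± 185 FPKM in irradiated and 107 ± 104 FPKM in nonirradiated skin (SD, n = 4 each, adjusted p = 0.0208, limma). With the mean log2 level of these markers as a covariate, the Fabp3 difference was -0.44 (adjusted p = 0.856, limma). That mean level was 7.86 to 8.45 in irradiated libraries, against 8.33, 6.27, 6.57 and 6.49 in nonirradiated replicates 1 to 4. Muscle level and group thus largely went together, and fits with this covariate, here and below, lean on nonirradiated replicate 1. The part of muscle in these differences was not tested. Of the 16, edgeR called 2 higher and 1 lower, against 0.748% of all genes in either direction. DESeq2 called 9 of the 16 higher and 1 lower, against 6.09% of all genes in either direction. The heart markers Nppa, Nppb and Myl7 were at 0 in all 8 libraries, and the 6 heart markers, led by Tnnt2, Tnni3 and Myh6, summed to 4.12 to 18.2 FPKM in irradiated and 2.97 to 6.35 FPKM in nonirradiated libraries. Fabp3 shares 81 exon bases with Zcchc17 and 80 with Gm10570 on the opposite strand, and it has a processed pseudogene on chromosome 10. Its value is uncertain where such reads were counted.

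**Figure D3:**
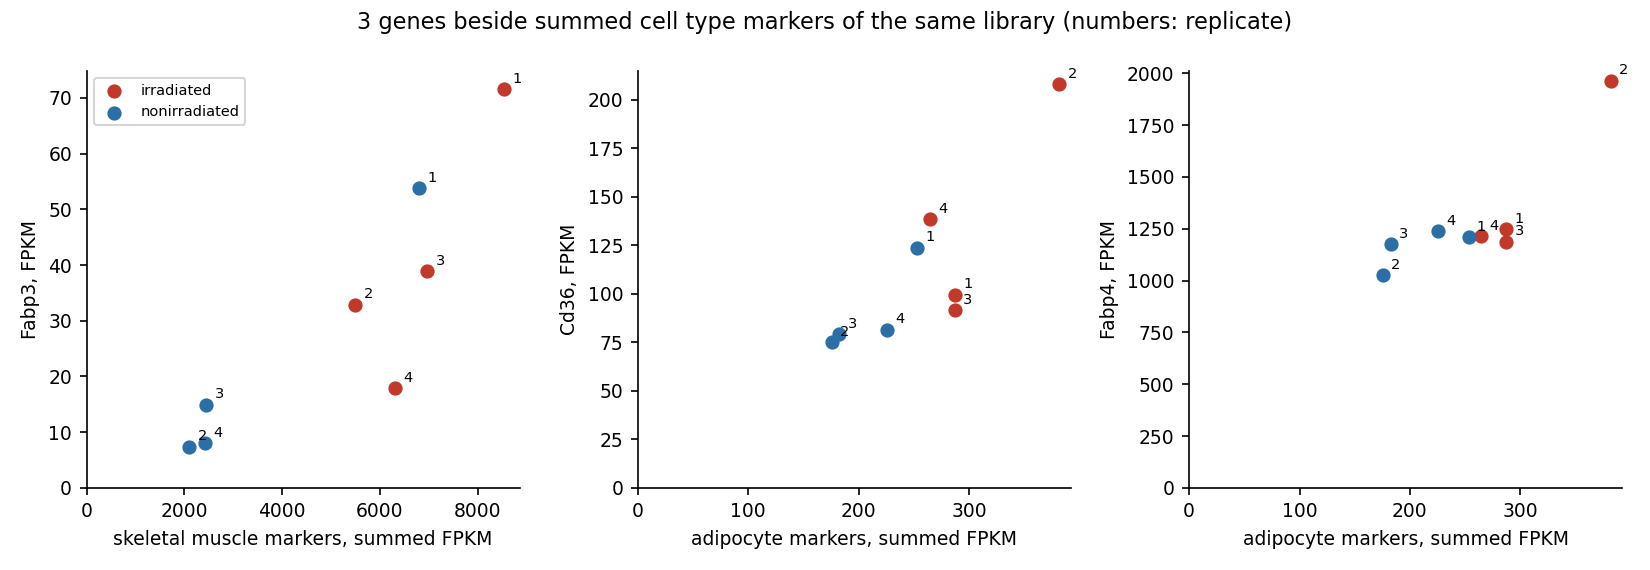
FPKM of Fabp3 against the summed FPKM of 16 skeletal muscle markers (left), and of Cd36 (middle) and Fabp4 (right) against the summed FPKM of 8 adipocyte markers, for each irradiated library (red) and nonirradiated library (blue) with its replicate number. For Fabp3, nonirradiated replicate 1 sits among the irradiated libraries on both axes; irradiated replicate 2 is the highest library for Cd36, Fabp4 and the adipocyte sum.

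Fabp7, the carrier of radial glia and of cells of the nerve sheath and pigment lineages, was listed at 0 in 7 of the 8 libraries (ENSMUSG00000019874, chr10:57784881-57788450, plus strand). It had 3.54 FPKM in irradiated replicate 3, which corresponds to 1 unit. That is 1 of 652650 units over the irradiated libraries, or 0.000153% with an exact Poisson 95% interval of 3.88e-06% to 0.000854%, against 0 of 3200843 units over the nonirradiated libraries, where a count of 0 allows a share of up to 9.37e-05% (3 counts). Such intervals and limits cover counting error only. The nonirradiated total includes replicates 2 and 3, whose units may be set by the search limit given above. No difference was detectable at this depth. The 10 Schwann cell and melanocyte markers, among them Dct and Erbb3, summed to 43.1 to 122 FPKM in irradiated and 84.7 to 130 FPKM in nonirradiated libraries. Of the 9 tested, 1 lay above 0 and 1, the melanocyte antigen gene Mlana, was called lower by limma. DESeq2 called it lower too, but edgeR on estimated counts did not. Over all genes, limma called 0.128% and DESeq2 2.9% lower. Mlana was listed at 0 in all 4 irradiated libraries against 10.8 ± 3.76 FPKM in nonirradiated skin (SD, n = 4).

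The make-up of the binding proteins was alike in its order in both groups. Of the summed FPKM of Fabp3, Fabp4, Fabp5 and Fabp7, which was 1524 ± 355 in irradiated and 1253 ± 97.6 in nonirradiated skin, Fabp4 held 91.7 ± 3.22% in irradiated and 92.8 ± 0.919% in nonirradiated skin. Fabp5 held 5.45 ± 1.94% in irradiated and 5.56 ± 1.32% in nonirradiated skin. Fabp3 held 2.75 ± 1.70% in irradiated and 1.64 ± 1.66% in nonirradiated skin (SD, n = 4 each). In nonirradiated replicate 1 Fabp3 held 4.09% and Fabp5 4.00%, the only library of the 8 in which Fabp3 was above Fabp5.

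Cd36, the membrane protein that binds and takes up long-chain fatty acids and oxidized lipoprotein, was second in level among these genes in both groups (ENSMUSG00000002944, chr5:17781690-17888801, minus strand). It had 99.6, 208, 91.6 and 138 FPKM in irradiated skin, against 124, 75.2, 79.4 and 81.5 FPKM in nonirradiated skin. Nonirradiated replicate 1 lay inside the irradiated range, and the other 3 nonirradiated libraries lay below all irradiated ones. The means were 134 ± 53.2 FPKM in irradiated and 90.0 ± 22.7 FPKM in nonirradiated skin (SD, n = 4 each), and the fitted difference was 0.53 (SE 0.30, 95% interval -0.13 to 1.19, adjusted p = 0.5005, limma). Without nonirradiated replicate 1 it was 0.69 (adjusted p = 0.451, limma), and without irradiated replicate 2 it was 0.29 (adjusted p = 0.649, limma). The difference stayed above 0 in all 22 other settings, from 0.22 to 0.71, and its lowest adjusted p was 0.120, from edgeR on units.

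The 8 adipocyte markers summed to 264 to 382 FPKM in irradiated and 175 to 253 FPKM in nonirradiated libraries, with the highest sum in irradiated replicate 2, where Cd36 and Fabp4 were highest too. That sum is led by Cfd, Cidec and Adipoq, with Cfd at 190 ± 46.7 FPKM in irradiated and 97.5 ± 21.6 FPKM in nonirradiated skin (SD, n = 4 each). Of the 8, 3 lay above 0, and limma called 0, with 1 at an unadjusted p under 0.05 against 12.9% of all genes. By the count fits, edgeR called 0 of the 8 and DESeq2 1, Cfd, higher, against 3.19% of all genes by DESeq2. With the mean log2 level of the adipocyte markers as a covariate, the Cd36 difference was 0.71 (adjusted p = 0.476, limma). The 10 endothelial markers, led by Pecam1, Emcn and Cdh5, summed to 88.1 to 121 FPKM in irradiated and 114 to 160 FPKM in nonirradiated libraries, with 1 of 10 above 0. Of these, 0 were called by limma (0 at an unadjusted p under 0.05), edgeR and DESeq2. The 9 macrophage markers in the table, led by Lyz2, Mrc1 and Itgam, summed to 46.4 to 109 FPKM in irradiated and 42.8 to 63.4 FPKM in nonirradiated libraries, with 6 above 0. Of these, limma called 0 (0 at an unadjusted p under 0.05). Of the 7 in the count fits edgeR called 0 and DESeq2 1, Itgam, higher, against 3.19% of all genes by DESeq2. The part of these cell types in the levels of Fabp4 and Cd36 was not tested.

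A start region of Cd36 is shown because this gene is a known target of PPARs, which bind a repeat of the nuclear receptor core motif AGGTCA. The 250 bases before its RefSeq transcript start on the minus strand (chr5:17835897-17836146, GRCm38.p6) are given in lower case, with a match to the core motif, here read on the opposite strand as TGACCT, in capitals. The first base of the match lies 228 bases before the start. This start lies inside the annotated gene, which has 6 coding transcripts and reaches upstream to position 17888801.
Cd36: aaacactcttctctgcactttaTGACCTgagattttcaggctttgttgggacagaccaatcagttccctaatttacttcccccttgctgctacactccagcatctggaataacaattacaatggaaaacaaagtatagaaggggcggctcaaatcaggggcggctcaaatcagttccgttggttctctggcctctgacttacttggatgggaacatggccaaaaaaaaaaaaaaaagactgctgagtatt
Of the 10 genes, 8 were found in the RefSeq promoter table, with 11 start regions. The core motif was present on either strand in the 250 bases before the start in 5 of these 11 regions, against 14.0% of all 32851 regions in the table, with bases inside annotated exons counted in both. Outside annotated exons it was present in 3 of the 11, 1 region each of Rxra, Cd36 and Fabp7. The other 2 with a match are start regions of Pparg. A match describes the letters of the sequence and is not evidence of binding.

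Pparg, the receptor that drives fat cell formation and lipid storage and is also used by sebocytes and macrophages, was the most abundant of the 3 PPAR genes (ENSMUSG00000000440, chr6:115360951-115490399, plus strand). It had 21.8, 20.7, 12.0 and 20.2 FPKM in irradiated skin, against 23.2, 10.6, 7.74 and 11.8 FPKM in nonirradiated skin. Irradiated replicates 1, 2 and 4 lay within 1 narrow band and above nonirradiated replicates 2, 3 and 4, whereas nonirradiated replicate 1 was the highest of all. The means were 18.7 ± 4.50 FPKM in irradiated and 13.3 ± 6.81 FPKM in nonirradiated skin (SD, n = 4 each), and the fitted difference was 0.53 (SE 0.39, 95% interval -0.33 to 1.39, adjusted p = 0.609, limma). It was 0.82 without nonirradiated replicate 1 (adjusted p = 0.454, limma). With the skeletal muscle markers as a covariate it was -0.08 (adjusted p = 0.978, limma). The values rest on 26 units in irradiated and 90 in nonirradiated libraries. The 8 sebocyte markers, led by Scd1, Krt79 and Far2, summed to 459 to 554 FPKM in irradiated and 180 to 288 FPKM in nonirradiated libraries. Of these 8, 6 lay above 0 and none was at 0 in all 8 libraries. At an unadjusted p under 0.05 limma had 4, against 12.9% of all genes. After adjustment limma called 1 higher, Far2, against 0.12% of all genes. Far2 averaged 64.9 ± 8.38 FPKM in irradiated and 10.9 ± 3.801 FPKM in nonirradiated skin (SD, n = 4 each, adjusted p = 0.00870, limma). Of the 7 in the count fits, edgeR called 2 and DESeq2 4, all higher, against 0.407% of all genes by edgeR and 3.19% by DESeq2.

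Pparg has 3 start regions in the RefSeq table, and the one furthest downstream is shown because it opens the form of the receptor known from fat cells. The other 2 regions hold the core motif inside annotated exons. The 250 bases before the third start on the plus strand (chr6:115421816-115422065, GRCm38.p6) hold no core motif on either strand, so no base is in capitals.
Pparg: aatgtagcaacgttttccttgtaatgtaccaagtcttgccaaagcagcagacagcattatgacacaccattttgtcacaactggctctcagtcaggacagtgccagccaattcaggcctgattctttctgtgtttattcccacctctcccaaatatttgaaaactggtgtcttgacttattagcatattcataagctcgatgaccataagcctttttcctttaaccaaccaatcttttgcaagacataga
This region has 40.8% G or C, against 43.2% in the Cd36 region. The absence of these 6 letters from 250 bases says nothing about binding elsewhere.

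Ppara, the receptor that switches on fatty acid oxidation in liver, heart and muscle, was low (ENSMUSG00000022383, chr15:85734983-85802819, plus strand). It had 10.4, 3.32, 0 and 0 FPKM in irradiated skin, against 3.19, 0.128, 1.79 and 0.254 FPKM in nonirradiated skin. Irradiated replicate 1 held the highest value of the 8 and irradiated replicates 3 and 4 the lowest, so the irradiated group spanned the whole nonirradiated range. The fitted difference was 0.39 (SE 0.84, 95% interval -1.47 to 2.25, adjusted p = 0.880, limma), and without irradiated replicate 1 it was -0.31 (adjusted p = 0.875, limma). The gene rests on 4 units in irradiated and 12 in nonirradiated libraries, and no direction can be read at this depth.

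Ppard, the widely expressed receptor that acts in keratinocytes and in oxidative muscle, had 8.24, 4.35, 6.16 and 0.0825 FPKM in irradiated skin, against 3.59, 8.04, 6.99 and 8.04 FPKM in nonirradiated skin (ENSMUSG00000002250, chr17:28232700-28301474, plus strand). Irradiated replicate 4 lay far below the other 7 libraries, and irradiated replicate 1 was the highest. The means were 4.71 ± 3.47 FPKM in irradiated and 6.66 ± 2.11 FPKM in nonirradiated skin (SD, n = 4 each), and the fitted difference was -0.74 (SE 0.70, 95% interval -2.28 to 0.80, adjusted p = 0.696, limma). It stayed below 0 in all 21 other settings that gave a value, from -1.34 to -0.06, and was nearest to 0 without irradiated replicate 4. It rests on 7 units in irradiated and 63 in nonirradiated libraries.

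Rxra, which encodes the partner that PPARs need to bind DNA, had 20.3, 18.6, 20.3 and 13.3 FPKM in irradiated skin, against 39.1, 24.3, 17.9 and 12.9 FPKM in nonirradiated skin (ENSMUSG00000015846, chr2:27676440-27762957, plus strand). All 4 irradiated values lay inside the nonirradiated range. The means were 18.1 ± 3.31 FPKM in irradiated and 23.5 ± 11.4 FPKM in nonirradiated skin (SD, n = 4 each), and the fitted difference was -0.27 (SE 0.37, 95% interval -1.07 to 0.54, adjusted p = 0.800, limma). Without nonirradiated replicate 1 it was 0.0080 (adjusted p = 0.996, limma), and with the skeletal muscle markers as a covariate it was -0.92 (adjusted p = 0.714, limma). The ratio of Rxra to Pparg FPKM within a library averaged 1.04 ± 0.447 in irradiated skin, with a range of 0.658 to 1.69, and 1.84 ± 0.579 in nonirradiated skin, with a range of 1.09 to 2.31 (SD, n = 4 each). The 2 ranges overlap.

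Ppargc1a, which encodes the coactivator PGC-1alpha, a driver of mitochondrial formation in muscle and brown fat, had a fitted difference whose direction depended on the fit (ENSMUSG00000029167, chr5:51454250-51567726, minus strand). It had 0.948, 1.91, 16.7 and 7.17 FPKM in irradiated skin, against 3.59, 4.40, 2.05 and 11.6 FPKM in nonirradiated skin. The estimated counts of the same libraries were 21.0, 105, 174 and 307 in irradiated skin, against 90.1, 94.7, 88.5 and 96.1 in nonirradiated skin. The means were 6.68 ± 7.22 FPKM in irradiated and 5.42 ± 4.26 FPKM in nonirradiated skin (SD, n = 4 each), and 152 estimated counts in irradiated against 92.4 in nonirradiated skin. By count the nonirradiated libraries lay close together and 3 of 4 irradiated libraries lay above them, whereas by FPKM the groups covered one another. Both means were thus higher in irradiated skin, within the spread of the libraries. The fitted difference was -0.06 on log2(FPKM + 1) (SE 0.77, 95% interval -1.75 to 1.64, adjusted p = 0.984, limma), 0.59 on estimated counts by edgeR (adjusted p = 0.949) and 0.64 by DESeq2 (adjusted p = 0.830). It rests on 17 units in irradiated and 52 in nonirradiated libraries. Of the brown fat markers, Ucp1 was at 0 in all 8 libraries. The 6 brown fat markers, led by Elovl3, Cox8b and Cidea, summed to 18.5 to 51.8 FPKM in irradiated and 13.2 to 25.5 FPKM in nonirradiated libraries, with 3 of the 5 tested above 0. Elovl3 is also among the sebocyte markers used here, so this sum is not particular to brown fat. Limma called 0 of the 5 (0 at an unadjusted p under 0.05), and edgeR and DESeq2 called 0 of the 4 they tested.

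The number of estimated counts behind 1 FPKM differed between libraries for some of these genes and hardly for others. Its highest value over the libraries was 1.03 times the lowest for Fabp3, 1.04 times for Fabp4, and 1.05 times for both Cd36 and Pparg. It was 1.24 times the lowest for Fabp5, 1.37 times for Rxra, 1.72 times for Ppara, 2.50 times for Ppard and 6.64 times for Ppargc1a. For Ppargc1a it ran between 10.4 and 54.8 in irradiated libraries, and between 8.26 and 43.2 in nonirradiated libraries. In the annotation Fabp3, Fabp4 and Fabp5 each have 1 coding transcript, of 823, 896 and 987 bases, whereas the 3 coding transcripts of Ppargc1a are 488 to 6464 bases long and those of Ppard 963 to 3277 bases. For Fabp3, Fabp4, Cd36 and Pparg, FPKM and estimated counts thus give the same comparison between libraries to within 1.05 times.

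**Figure D4:**
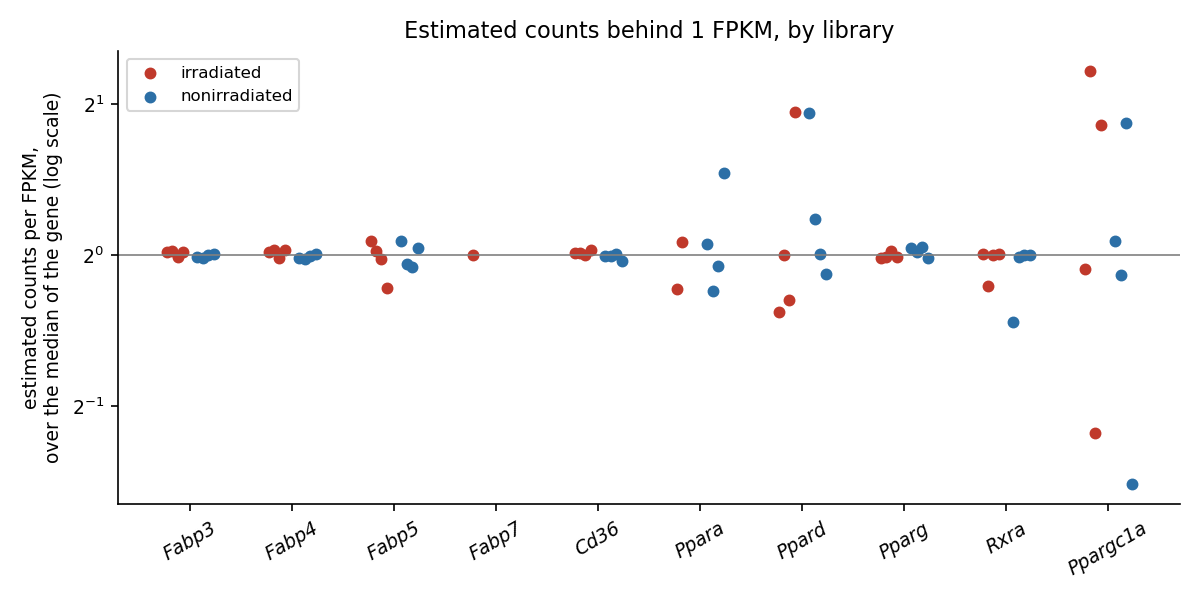
Estimated counts per FPKM of each gene in each irradiated (red) and nonirradiated (blue) library with a value above 0, divided by the median of that gene, on a log axis. Fabp3, Fabp4, Cd36 and Pparg sit on 1 line, and Ppargc1a spreads over a range of 6.64 times.

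By mean FPKM the order in irradiated skin was Fabp4, Cd36, Fabp5, Fabp3, Pparg, Rxra, Ppargc1a, Ppard, Ppara and Fabp7. In that order only Fabp4 and Cd36 had ranges over the 4 libraries that do not overlap. In nonirradiated skin the order was Fabp4, Cd36, Fabp5, Rxra, Fabp3, Pparg, Ppard, Ppargc1a, Ppara and Fabp7, and the ranges of neighbours were apart for Fabp4 and Cd36, for Fabp5 and Rxra, and for Ppara and Fabp7. The places of Rxra, Fabp3, Pparg, Ppard and Ppargc1a, by which the 2 orders differ, thus lie within the spread of the libraries.

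For each gene with a mean of at least 10 FPKM, the genes with the most similar profile were taken by the root mean square difference of log2(FPKM + 1) values, centred over the 8 libraries, among 5725 genes. For Fabp3 these were Acta1 at 0.35, Atp2a1 at 0.37 and Tnnc2 at 0.40, all 3 genes of the contractile or calcium-handling apparatus of skeletal muscle, against a median over all genes of 1.15. For Fabp4 they were Spred1 at 0.07, Hspd1 at 0.08 and Lims1 at 0.11, against a median of 0.61. For Cd36 they were Ccdc91 at 0.11, Ndufv1 at 0.13 and Mtus1 at 0.16, and for Pparg they were Gnas at 0.15, Colgalt1 at 0.18 and Sostdc1 at 0.19, against medians of 0.68 and 0.69. For Fabp5 they were Cfdp1 at 0.15, Rpl23 at 0.17 and Rps24 at 0.18, and for Rxra they were Zyx at 0.15, Rapgef3 at 0.19 and Ankrd52 at 0.20, against medians of 0.67 and 0.73. These are descriptions over 8 libraries that share 2 groups, and Fabp4, whose log2 level varied least of these 6 genes between libraries, also had the lowest median difference from all genes.

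Of 6 other fatty acid binding proteins, the liver, intestinal, ileal and testis forms Fabp1, Fabp2, Fabp6 and Fabp9 were listed at 0 in all 8 libraries. The other 2, Fabp12 and the myelin protein Pmp2, were not called by limma (0 at an unadjusted p under 0.05), with differences of -0.44 and -0.52. The count fits did not test them. They rest on 1 unit each in irradiated libraries, against 2 and 5 in nonirradiated libraries.

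Among 15 partners, coactivators and corepressors of PPARs, 14 were tested and limma called 0 in either direction, with 6 above 0, 8 below 0 and a median of -0.12. At an unadjusted p under 0.05 it was 1 of the 14, against 12.9% of all genes. By the count fits, edgeR on estimated counts called 0 and DESeq2 2, both lower, against 2.9% of all genes by DESeq2. The 2 with the smallest p were Crebbp, a histone acetyltransferase, and Ncor1, a corepressor that holds unliganded nuclear receptors silent. Crebbp averaged 24.6 ± 5.25 FPKM in irradiated and 37.7 ± 2.93 FPKM in nonirradiated skin without overlap (SD, n = 4 each), a difference of -0.62 (adjusted p = 0.342, limma) that was called by DESeq2 (adjusted p = 0.00770) and by edgeR on units (adjusted p = 0.0399). Ncor1 averaged 152 ± 28.0 FPKM in irradiated and 221 ± 55.2 FPKM in nonirradiated skin (SD, n = 4 each), a difference of -0.52 (adjusted p = 0.394, limma) that was called by DESeq2 (adjusted p = 0.00467).

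Of 25 targets of PPARs in fatty acid oxidation and fasting, 22 were tested and limma called 0, with 11 above 0, 11 below 0 and a median of -0.0013. At an unadjusted p under 0.05 it was 3 of the 22, against 12.9% of all genes. By the count fits, edgeR on estimated counts called 1 and DESeq2 2, all higher, against 0.407% of all genes by edgeR and 3.19% by DESeq2. Cyp4a14, a classical target of the receptor encoded by Ppara in liver, was at 0 in all 8 libraries. Acadl, the mitochondrial long-chain acyl-CoA dehydrogenase, had 234, 185, 140.1 and 140.2 FPKM in irradiated skin, against 91.3, 57.3, 60.6 and 58.1 FPKM in nonirradiated skin. All irradiated values lay above all nonirradiated ones, and the fitted difference was 1.37 (SE 0.26, adjusted p = 0.0609, limma). It passed the threshold in 6 of 23 settings, among them edgeR on estimated counts (1.29, adjusted p = 0.0130) and limma without nonirradiated replicate 1 (1.52, adjusted p = 0.0410). Pdk4, the kinase that shuts pyruvate out of oxidation, averaged 66.1 ± 7.36 FPKM in irradiated and 28.7 ± 15.7 FPKM in nonirradiated skin (SD, n = 4 each), a difference of 1.30 (adjusted p = 0.140, limma). It passed in 3 of 23 settings, among them limma without nonirradiated replicate 1 (1.62, adjusted p = 0.0396). With the skeletal muscle markers as a covariate, the difference was 0.94 for Acadl (adjusted p = 0.479, limma) and 0.54 for Pdk4 (adjusted p = 0.787, limma). In nonirradiated replicate 1, the library rich in muscle transcripts, Acadl and Pdk4 were at 91.3 and 51.7 FPKM, the highest values of that group.

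Of 19 targets of the receptor encoded by Pparg in fat cells, all 19 were tested and limma called 0, with 10 above 0, 9 below 0 and a median of 0.06. All 8 adipocyte markers, Cfd among them, are also in this list, so the 2 lists are not separate observations. At an unadjusted p under 0.05 it was 3 of the 19, against 12.9% of all genes. Of the 18 in the count fits, edgeR called 0 and DESeq2 3, Acsl1, Cfd and Mgll, all higher, against 3.19% of all genes by DESeq2. Mgll, the lipase that splits monoacylglycerols, averaged 47.9 ± 12.7 FPKM in irradiated and 16.6 ± 6.35 FPKM in nonirradiated skin without overlap (SD, n = 4 each), a difference of 1.51 (adjusted p = 0.0966, limma). Cfd, the complement factor secreted by fat cells, differed by 0.95 without overlap (adjusted p = 0.141, limma). Mgll was called by DESeq2 (adjusted p = 4.81e-05) and by edgeR on units (adjusted p = 0.00325), and so was Cfd (adjusted p = 0.000660 by DESeq2 and 0.00713 by edgeR on units). The fat cell hormone genes Adipoq and Retn lay on opposite sides of 0, and neither was called. Adipoq averaged 51.5 ± 22.1 FPKM in irradiated and 31.7 ± 5.50 FPKM in nonirradiated skin. Retn averaged 2.24 ± 4.49 FPKM in irradiated and 4.94 ± 1.98 FPKM in nonirradiated skin (SD, n = 4 each). Retn was at 0 in 3 of 4 irradiated libraries and rests on 2 units there, against 17 in nonirradiated libraries.

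Of 16 genes of fatty acid uptake and activation, 13 were tested and limma called 0, with 7 above 0, 6 below 0 and a median of 0.16. At an unadjusted p under 0.05 it was 1 of the 13, against 12.9% of all genes. By the fits on estimated counts, edgeR and DESeq2 called 0. On units edgeR called 1 of the 10 it tested, Acsl3, lower, against 3.71% of all genes. Slc27a5, the liver form of the fatty acid transport proteins, was at 0 in all 8 libraries. Cav1, the coat protein of caveolae, which are dense in fat cells and endothelium, averaged 136 ± 41.5 FPKM in irradiated and 83.6 ± 10.5 FPKM in nonirradiated skin (SD, n = 4 each), a difference of 0.65 (adjusted p = 0.325, limma). The Cav1 difference was smaller on estimated counts, at 0.18 by edgeR (adjusted p = 0.926) and 0.22 by DESeq2 (adjusted p = 0.718). On units it was 0.28 by edgeR (adjusted p = 0.384). Scarb1, a scavenger receptor related to Cd36, averaged 21.7 ± 16.1 FPKM in irradiated and 38.5 ± 13.2 FPKM in nonirradiated skin (SD, n = 4 each), a difference of -1.06 (adjusted p = 0.438, limma). On estimated counts the Scarb1 difference was -0.25 by edgeR (adjusted p = 0.989) and -0.22 by DESeq2 (adjusted p = 0.957), and on units it was -0.02 by edgeR (adjusted p = 0.983). Neither was called in any of 23 settings.

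**Figure D5:**
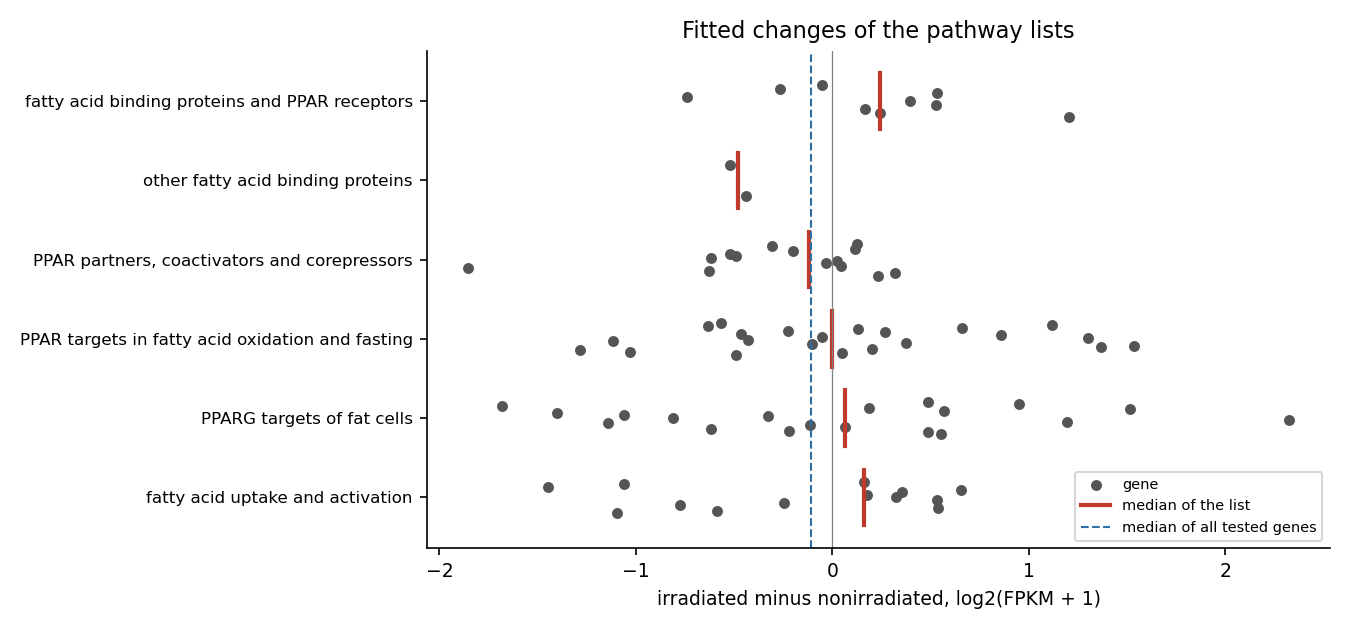
Fitted difference of each tested gene, irradiated minus nonirradiated on the log2(FPKM + 1) scale. Shown are the 9 tested genes of the group, with Cd36, Rxra and Ppargc1a among them, and 5 lists of related genes. Red lines mark list medians, from -0.48 to 0.24, and the dashed line the median over all genes tested, -0.11; in every list tested genes lie on either side of 0 except the other fatty acid binding proteins, where 2 were tested.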

How the data were processed

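Whole skin RNA of 8 libraries was analysed from 1 deposited table. The FPKM values and the estimated counts per gene are those the authors deposited, as named in the file headers. The submitters' processing notes name the genome build mm10 and, among tools, Cuffdiff, Cufflinks, HISAT2 2.0.4 and cutadapt 1.9.3. Which tool wrote the table, with which annotation and strand setting, is not given in the sources used here.

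The test was limma 3.58.1 in R 4.3.3, with robust moderation and a trend of the variance on the mean, on log2(FPKM + 1) of 13324 genes averaging 0.5 FPKM or more, two-sided and adjusted over all of them by the Benjamini-Hochberg method. A pseudocount of 1 understates differences of low genes. edgeR 4.0.16 and DESeq2 1.42.0 were run on the deposited estimated counts rounded to whole numbers, and edgeR without further mention means that fit. The counts are mostly whole multiples of a step per library: once divided by it, 92.6% to 96.3% of values below 2000 steps came within 0.02 of a whole number, and these are called recovered reads. edgeR was also run on these reads and on units, a choice made after seeing the data. The limma and edgeR fits were tested on simulated data, with larger changes put in than any fitted difference of the 9 tested genes of the group. DESeq2 and the fits on units or with a covariate were not tested in this way.

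Coordinates are from GENCODE M21 on GRCm38, the assembly of mm10, which matched 21839 of 22564 identifiers. Start regions are from RefSeq on GRCm38.p6, and the printed stretches hold no base of an annotated exon. The genes, the lists of related genes and markers, and the tests were chosen with earlier results of these data known. The text names the 10 genes, in each list the called genes and the 2 with the smallest p, up to 3 leading markers and the markers at 0, and the 3 most similar profiles of each gene with a mean of at least 10 FPKM. Of these, 1 marker gene is not reported here. Retn, Mlana, Itgam, Acsl1 and Acsl3 were named after their values were seen. Whether equal replicate numbers pair the libraries is not known. The correlations of deviations from the group means were between -0.013 and 0.0901 for equal numbers and between -0.088 and 0.0776 for unequal ones. Low correlations cannot show that libraries came from separate mice.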

Additional observations from a re-analysis of the deposited data

Results flagged for a closer look

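Chance meets Dixon's criterion for 4 values in about 1 of 20 groups of independent, normally distributed values. The groups here share the same libraries, and 3 values of 0 beside 1 above 0 always meet it, so the count is a description. In 5 of 19 groups of 4 libraries, 1 library stood apart from the other 3 by this criterion. In nonirradiated skin it was replicate 1 for Fabp3, at 53.8 FPKM against 7.40 to 14.9 FPKM in the other 3, and for Cd36, at 124 FPKM against 75.2 to 81.5 FPKM in the other 3. In irradiated skin it was replicate 2 for Fabp4, at 1965 FPKM against 1188 to 1249 FPKM in the other 3. Irradiated replicate 3 stood apart for Pparg, at 12.0 FPKM against 20.2 to 21.8 FPKM, and for Fabp7, at 3.54 FPKM against 0 in the other 3, a value that rests on 1 unit.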

How the results depend on the processing

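None of the 10 genes was called in any of 22 other settings, of which edgeR on units tested 6 of the 10. Over all genes, 33 were called, against 16 with the replicate block, 0 with the skeletal muscle index and 5 with the adipocyte index as a covariate, 92 by edgeR on estimated counts, 749 by DESeq2, 92 by edgeR on recovered reads, 509 by edgeR on units and 9 with irradiated replicates 1 and 4 left out. Leaving out 1 library gave 4 to 76 genes: 20 and 51 without irradiated replicates 1 and 3, and 76, 4, 4 and 11 without nonirradiated replicates 1 to 4. The replicate block called none of the 10 genes, with Fabp3 at 1.21 (SE 0.35, unadjusted p = 0.00895, adjusted p = 0.261, limma). Beside the report's values, the difference changed sign with the muscle index for Fabp3 (-0.44), Ppara (-0.77), Pparg (-0.0804) and Ppargc1a (0.26), with quantile normalization for Fabp4 (-0.29), Fabp5 (-0.14) and Ppargc1a (0.38), and with a pseudocount of 0.1 for Ppara (-0.12). For Ppargc1a it was also above 0 with the adipocyte index (0.21), by edgeR on estimated counts (0.59), DESeq2 (0.64), edgeR on recovered reads (0.59) and without irradiated replicates 1 and 4 (0.37). Leaving out 1 library gave -0.31 to 0.86 for Ppara, -0.50 to 0.00798 for Rxra and -0.63 to 0.43 for Ppargc1a. The cause was not tested. Median ratio scaling moved the median of all genes to -0.20 and quantile normalization to -0.01, against -0.11. Depth limits Fabp7, Ppara, Ppard, Ppargc1a, Fabp3 and Pparg, each with under 30 units in irradiated skin.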
